A study of Oniscidea with 6 samples.

Results

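Actins were read here through the 7 mouse symbols under which the deposited table of woodlouse RNA counts them: Acta1, Acta2, Actb, Actbl2, Actc1, Actg1 and Actg2. They are 7 of the 24421 features in the table, were taken by symbol, and all 7 had reads in all 6 libraries and passed the level for testing. The libraries were made from poly(A) RNA of fresh tissue of Oniscidea, the terrestrial isopod crustaceans. A set of 3 libraries was labelled Rolling and another of 3 was labelled Stretching. Neither group was treated, and no species, strain, sex, age, tissue or number of animals is given for either, so a group may differ from the other in any of these. The series title names rolling behaviour as the subject. Transcript assemblies that the labels also name were not analysed here. Nothing in the labels says that replicates came from separate animals, so every p-value measures only the spread between these libraries, which may be technical.

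Actin is the protein of the microfilament. In mammals, Acta1 and Actc1 are the actins of skeletal and heart muscle, Acta2 and Actg2 those of vascular and visceral smooth muscle, and Actb and Actg1 the cytoplasmic actins found in nearly all cells, while Actbl2 encodes an actin close to beta-actin. Actin protein sequences are among the most conserved of animals. In arthropods, muscle and cytoplasmic actins are both closer to the cytoplasmic than to the muscle actins of vertebrates, so a mouse symbol here does not tell whether a woodlouse actin belongs to muscle. The 7 mouse actins are closely similar as proteins, and the likeness of their coding sequences was not computed. Reads of a single woodlouse gene may be spread over several symbols, so the split between members is uncertain. The family sum does not depend on the split among these 7 symbols, but it leaves out any actin reads counted under other symbols. How reads matching several symbols were counted is not given in these sources. Reads were not divided by length, so shares compare numbers of reads and not levels of RNA per length.

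Actin reads made up a similar part of the libraries in both groups. They held 17.2%, 19.2% and 15.9% of the counted reads in rolling samples 1 to 3, against 18.3%, 21.5% and 12.0% in stretching samples 1 to 3. These were 92649, 79842 and 178076 reads in rolling and 83306, 86688 and 65152 in stretching. The mean share was 17.4% ± 1.65 in rolling libraries and 17.2% ± 4.83 in stretching libraries (SD, n = 3 each), and the groups overlapped. The 95% Wilson interval of the share was 11.9% to 12.1% in stretching 3 and 21.3% to 21.6% in stretching 2. Such intervals hold for counting error alone, because PCR copies of a molecule are counted as separate reads. The highest and the lowest share both lay in the stretching group.

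Depth and a few other abundant features varied beside these values. Counted reads ranged from 416821 to 1122154 in rolling and from 403971 to 544157 in stretching. Rn45s, the precursor of ribosomal RNA, together with Lars2 and Mir6236, took 6.49%, 18.3% and 43.9% of the reads in rolling samples 1 to 3, against 9.45%, 9.47% and 44.7% in stretching samples 1 to 3. The 2 highest sums differed in make-up. In rolling 3, Rn45s held 34.7%, Lars2 5.53% and Mir6236 3.72%. In stretching 3, Rn45s held 1.17%, Lars2 26.0% and Mir6236 17.6%. With these 3 features left out of the total, a step chosen after their values were seen, actins held 18.4%, 23.4% and 28.3% of the rest in rolling, against 20.2%, 23.7% and 21.6% in stretching. The groups still overlapped, and the low share of stretching 3 moved between those of the other stretching libraries. The authors' size factors add a further difference, since the summed normalised reads of a library ran from 284281 in rolling 1 to 1219550 in rolling 3. Normalised actin reads therefore stood at 48832, 97747 and 193532 in rolling samples 1 to 3, against 79821, 98149 and 72179 in stretching samples 1 to 3. The stretching values lay within the span of the rolling ones, whose highest was 3.96 times their lowest.

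**Figure D1:**
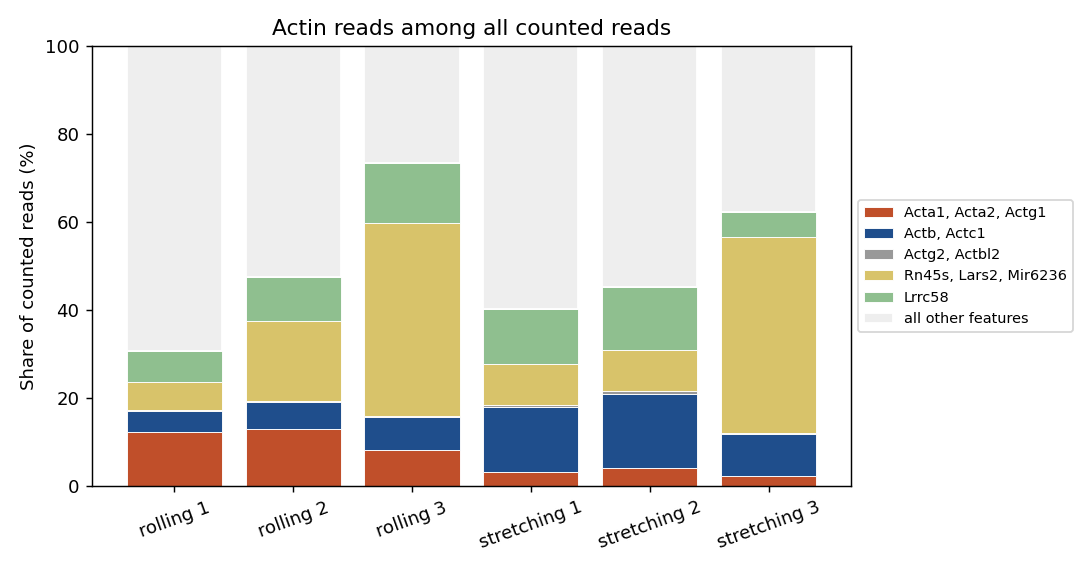
Share of all counted reads (%, vertical axis) in each of the 6 libraries, rolling left and stretching right, stacked by actins, by Rn45s, Lars2 and Mir6236 together, by Lrrc58 and by all other features. The actin part is similar in total (15.9% to 19.2% in rolling, 12.0% to 21.5% in stretching) but is mostly Acta1, Acta2 and Actg1 in rolling and mostly Actb and Actc1 in stretching.

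Within this similar total, the make-up of the actin reads differed. Actb, a cytoplasmic actin in mammals, held 22.2%, 27.4% and 30.4% of the actin reads in rolling samples 1 to 3, against 71.3%, 69.5% and 71.0% in stretching samples 1 to 3. The mean share was 26.7% ± 4.17 in rolling libraries and 70.6% ± 0.956 in stretching libraries (SD, n = 3 each), with no overlap (exact permutation p 0.1, two-sided, the smallest that 3 libraries against 3 allow). All other exact p-values below have the same lower limit. For the smooth muscle actin Acta2 the shares ran the other way, at 42.9%, 37.2% and 30.3% in rolling, against 11.9%, 12.2% and 11.6% in stretching. The mean was 36.8% ± 6.31 in rolling and 11.9% ± 0.271 in stretching, again without overlap (exact permutation p 0.1). The skeletal actin Acta1 held 24.2%, 25.5% and 19.8% in rolling, against 4.52%, 5.17% and 4.96% in stretching, a mean of 23.2% ± 3.02 in rolling and 4.88% ± 0.331 in stretching (exact permutation p 0.1). Acta1, Acta2 and Actb together held 80.5% to 90.1% of the actin reads in rolling and 86.8% to 87.7% in stretching.

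The remaining members were smaller. Actc1, the heart actin, held 5.71%, 4.57% and 15.8% of the actin reads in rolling and 9.18%, 9.66% and 9.46% in stretching. Its rolling libraries lay on both sides of the stretching ones, with rolling 3 above and the other two below. Actg1, the other main cytoplasmic actin of mammals, held 3.48%, 4.25% and 1.50% in rolling, against 1.26%, 1.17% and 1.23% in stretching, without overlap (exact permutation p 0.1), although rolling 3 lay close to the stretching values. Actg2 held 1.03%, 1.01% and 0.955% in rolling, against 1.51%, 1.98% and 1.39% in stretching, without overlap (exact permutation p 0.1). The share of Actg2 was the steadiest of the 7 among rolling libraries, its highest being 1.08 times its lowest. Actbl2 held 0.482%, 0.0676% and 1.26% in rolling and 0.351%, 0.352% and 0.298% in stretching. Its rolling values spanned 18.6-fold and enclosed those of stretching.

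Values did not overlap for 5 of the 7 members when divided by the actin sum, and 69.5% of all 2948 tested features did not overlap on that scale. By direction, 33.1% of these features were higher in rolling and 36.3% lower, beside 3 actins higher and 2 lower. Actins thus separated the groups about as often as other features, which are not part of the actin sum. Shares of the same sum are not independent, so the 5 members are not 5 separate results. Summed over the 4 muscle actins of mammals, the share of the family was 73.9%, 68.3% and 66.8% in rolling and 27.1%, 29.0% and 27.4% in stretching. This difference lay in Acta1 and Acta2, with a mean of 60.0% in rolling and 16.8% in stretching. Actc1 overlapped between the groups and Actg2 was lower in rolling. In terms of the whole library, these 4 symbols held 12.7%, 13.1% and 10.6% of the counted reads in rolling, against 4.95%, 6.22% and 3.29% in stretching. Actb alone held 3.81%, 5.24% and 4.83% of the counted reads in rolling, against 13.0%, 14.9% and 8.50% in stretching.

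**Figure D2:**
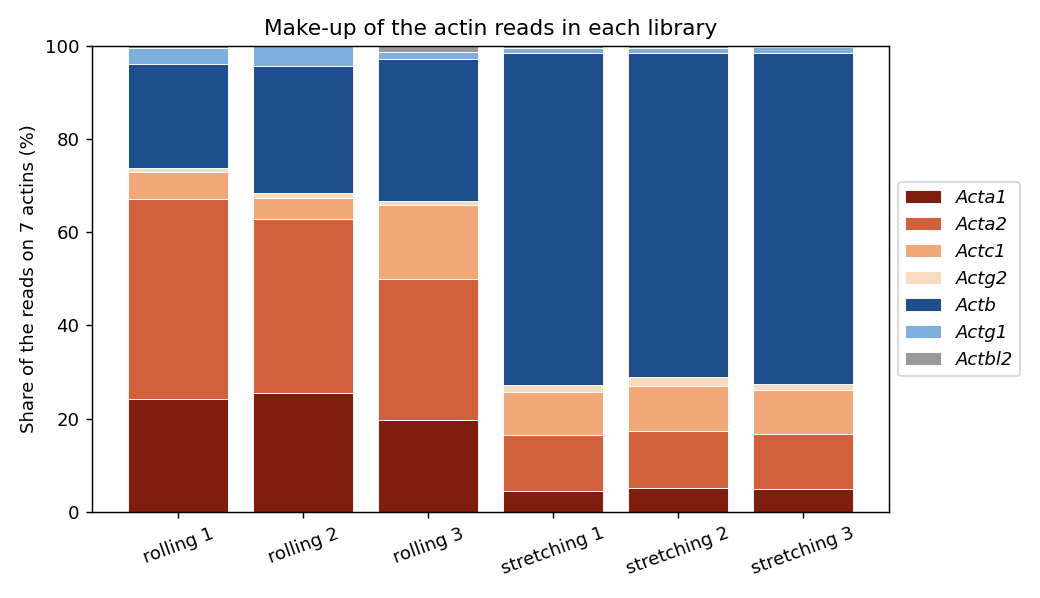
Share of the reads on the 7 actins (%, vertical axis) taken by each member, in the 3 rolling libraries (left) and the 3 stretching libraries (right), with the muscle actins of mammals in red tones and the cytoplasmic actins in blue. Actb fills 69.5% to 71.3% of each stretching bar and 22.2% to 30.4% of each rolling bar, and the stretching bars are nearly alike.

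The order of members by share of actin reads also differed. In the 3 stretching libraries the order was the same: Actb, Acta2, Actc1, Acta1, Actg2, Actg1 and Actbl2. Acta2 stood first in rolling 1 and rolling 2, and Actb stood first in rolling 3 with 54190 reads beside 53955 of Acta2, a near tie. The gap between Actb and Acta1 in rolling was also within the spread of the libraries, since Acta1 was ahead of Actb in rolling 1 and behind it in rolling 2 and 3. In rolling libraries Acta1 and Acta2 both had more reads than Actc1, whereas Acta1 had fewer than Actc1 in stretching. Expressed as the effective number of equally used members (the inverse of the summed squared shares), actin reads were spread over 3.37, 3.54 and 4.02 symbols in rolling and 1.88, 1.96 and 1.89 in stretching, without overlap.

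Libraries of the stretching group resembled each other closely in this respect. A pair of stretching libraries differed by 0.721 to 1.85 percentage points of the actin reads, that is, the part that would have to be moved to another symbol to make them equal. Pairs of rolling libraries differed by 7.22 to 19.1 points, the 2 larger values both involving rolling 3. Between the groups the difference was 40.1 to 53.0 points, and the 3 lowest of these, 40.1 to 41.4 points, were those of rolling 3. Chi-square statistics of the 7 read counts, divided by their degrees of freedom, were 4.68 to 20.7 within stretching, where sampling noise alone gives about 1. No libraries were therefore counted as copies of a single library.

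Ratios within a library do not depend on how libraries are scaled. The number of Acta2 reads per Actb read was 1.93, 1.36 and 0.996 in rolling samples 1 to 3, against 0.167, 0.175 and 0.164 in stretching samples 1 to 3. On the log2 scale the ratio was 3.03 higher in rolling, with means of 0.46 ± 0.48 in rolling libraries and -2.57 ± 0.05 in stretching libraries (SD, n = 3 each; exact permutation p 0.1). For Acta1 per Actb read the values were 1.09, 0.932 and 0.649 in rolling, against 0.0634, 0.0743 and 0.0698 in stretching, a log2 difference of 3.66. Actb reads per Actg1 read numbered 6.38, 6.43 and 20.3 in rolling and 56.4, 59.4 and 57.8 in stretching, so these 2 cytoplasmic actins of mammals moved apart as well. The pair of Acta1 and Acta2 also did not overlap, with a smaller difference. Acta1 reads per Acta2 read were 0.565, 0.685 and 0.652 in rolling, against 0.379, 0.424 and 0.426 in stretching, a log2 difference of 0.63. The ratio of Acta2 to Actg1 overlapped, with 12.3, 8.75 and 20.2 in rolling and 9.43, 10.4 and 9.48 in stretching. Of the 21 pairs of actins, 12 did not overlap between the groups (exact permutation p 0.1 each) and 9 did. Among the 1910035 pairs of the 1955 tested features with a read in every library, 67.5% did not overlap, so ratios between actins did not separate the groups more often than ratios between other features. Of the 6 pairs that include Actbl2, all 6 overlapped.

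On the scale of the authors' normalised reads, the members fell into 3 kinds. Acta1 had 11833, 24928 and 38242 normalised reads in rolling samples 1 to 3, against 3608, 5071 and 3581 in stretching samples 1 to 3. The lowest rolling library was above the highest stretching library. Acta1 averaged 25001 ± 13205 in rolling and 4086 ± 853 in stretching (SD, n = 3 each), and it rose by 2.48 (SE 0.72) on the log2(value + 1) scale, at a limma adjusted p of 0.011. This call was lost without stretching 1 (limma adjusted p 0.073), without stretching 3 (0.060), and without rolling 3 and stretching 3 together (0.057).

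Actg1 had 1699, 4159 and 2904 normalised reads in rolling, against 1009, 1149 and 886 in stretching, again with no overlap. Its log2 fold change of 1.44 (SE 0.50) passed the test, with a limma adjusted p of 0.025. The call of Actg1 stood near the threshold and was lost in 10 of 20 alternatives, with a limma adjusted p of 0.101 when libraries were scaled to their totals, 0.052 without rolling 2, and 0.080, 0.055 and 0.085 without stretching 1, 2 and 3. As a share of all counted reads, Actg1 overlapped between the groups, with 0.598%, 0.815% and 0.238% in rolling and 0.231%, 0.251% and 0.147% in stretching.

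Acta2 had 20943, 36409 and 58638 normalised reads in rolling, against 9519, 11956 and 8401 in stretching. Although the groups did not overlap, the log2 fold change of 1.85 (SE 0.81) missed the threshold, at a limma adjusted p of 0.064. Acta2 did pass it in 10 of 20 alternatives, among them TMM scaling (limma adjusted p 0.047), scaling to library totals (0.026) and DESeq2 on the recovered reads (adjusted p 0.00013). The value without rolling 1, the library with the fewest normalised reads, was 2.23 (limma adjusted p 0.024).

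Actb had 10830, 26739 and 58893 normalised reads in rolling, against 56875, 68209 and 51267 in stretching. Rolling 3 reached the stretching values, and the other rolling libraries were lower. The log2 fold change was -1.18 (SE 1.04; limma adjusted p 0.32). It was -0.56 without rolling 1 and -1.78 without rolling 3, with limma adjusted p of 0.61 and 0.13. The spread among rolling libraries, 5.44-fold for Actb, narrowed to 1.38-fold for its share of the counted reads.

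Actc1, Actg2 and Actbl2 did not pass the threshold, with log2 fold changes of -0.11 (SE 0.93), -0.45 (SE 0.57) and 0.29 (SE 1.08). For Actbl2 the fold change on recovered reads was 1.71 by DESeq2 (adjusted p 0.12) and 1.47 by edgeR (adjusted p 0.15), and it did not pass there. Actc1 had 2789, 4462 and 30567 normalised reads in rolling, against 7326, 9479 and 6827 in stretching. Actbl2 had 236, 66.1 and 2439 in rolling, against 280, 345 and 215 in stretching. For both symbols rolling 3 was above all stretching libraries and rolling 2 was below them. Rolling 3 was also the deepest library, at 1122154 reads, and had the highest share of Rn45s, 34.7% against 4.65% in rolling 1 and 13.0% in rolling 2. In stretching samples 1 to 3 the share of Rn45s was 7.30%, 7.18% and 1.17%. The part of these values in the actin differences was not tested. Actg2 had 502, 983 and 1849 normalised reads in rolling, against 1204, 1939 and 1003 in stretching, and the groups overlapped.

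In all, 2 of the 7 actins were called at an adjusted p under 0.05, both higher in rolling, where 75.2% of all tested features were called, 37.8% higher and 37.4% lower. The share of called actins was thus below the background. The share of all features called was 72.7%, 73.3% and 73.7% without rolling 1, 2 and 3, and 70.4%, 71.1% and 72% without stretching 1, 2 and 3, when between 0 and 3 actins were called. It was 68.0% without rolling 3 and stretching 3 (0 actins called), 75.4% with replicate number as a block (1 actin called) and 31.6% without a filter on low features (1 actin called). Normalised values of 3 actins did not overlap between groups, all higher in rolling, beside 78.7% of all tested features, 39.8% higher and 38.8% lower. In the authors' deposited table, 3 actins were called, with log2 fold changes of 2.61 for Acta1, 1.96 for Acta2 and 1.52 for Actg1 and adjusted p of 7.4e-07, 0.00013 and 0.0019. That table called 37.2% of the 10612 features with an adjusted p, 18.7% higher and 18.5% lower. It also gave a log2 fold change of -0.87 for Actb, with an adjusted p of 0.21.

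**Figure D3:**
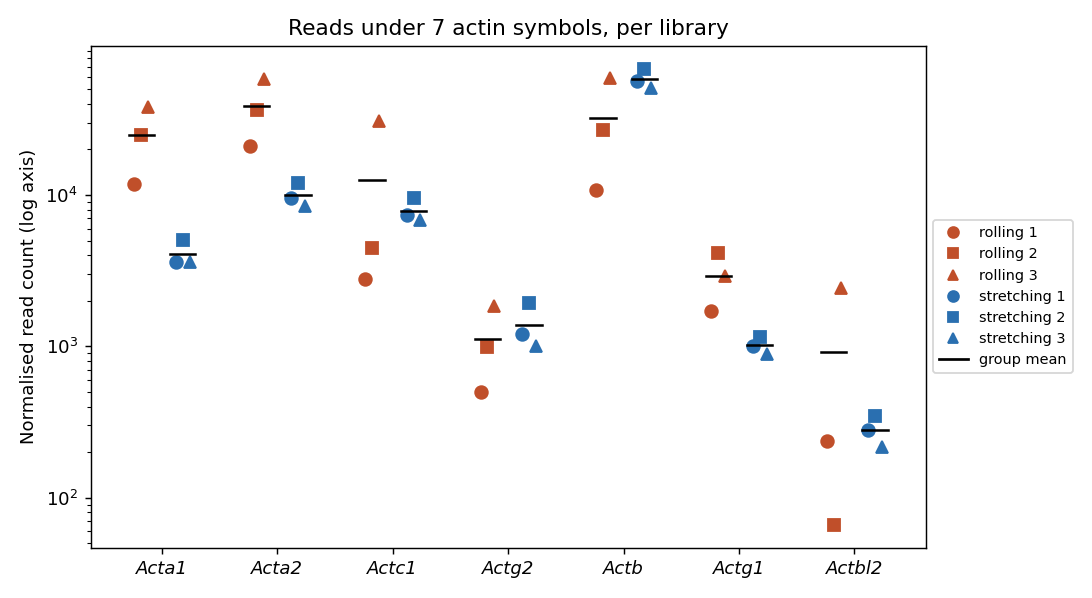
Normalised read count (log axis) of each actin in every library, rolling left of stretching for each symbol, with marker shapes for the replicate number and black lines for group means. Rolling and stretching libraries do not overlap for Acta1, Acta2 and Actg1, and rolling libraries spread more widely, from 66.1 to 2439 for Actbl2.

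Whether Acta2, Actb and Actg1 passed the threshold depended on the scaling. When each library was scaled to the summed reads of its 7 actins, a scaling chosen after the values were seen, the fit across all 2948 features tested the shares themselves. On that scale Acta1 was higher in rolling by 2.24 (SE 0.41; limma adjusted p 0.00038), Acta2 was higher by 1.61 (SE 0.40; adjusted p 0.0032) and Actb was lower, at -1.42 (SE 0.39; adjusted p 0.0058). It called 67.7% of all tested features, 32.4% higher and 35.3% lower. The actin calls on this scale are not independent of each other, since they are shares of the same sum. The call of Actg1 was lost there, at 1.20 (SE 0.52; limma adjusted p 0.055), and those of Actc1, Actg2 and Actbl2 were not made. Scaling to library totals without Rn45s, Lars2 and Mir6236, also chosen after the values were seen, called 4 actins: Acta1, Acta2 and Actg1 as higher and Actb as lower, at -1.34 (SE 0.51; limma adjusted p 0.033). It called 71.7% of all tested features, 35.0% higher and 36.7% lower. Over all tested features, the median fold change (log2) was 0.10 with the authors' size factors and -0.11 with scaling to the actin sum. Rescaling the libraries shifts the log2 fold change of every feature by nearly the same amount. Relative to the median, those of Acta1 and Actb were therefore bound to be nearly the same under both scalings.

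**Figure D4:**
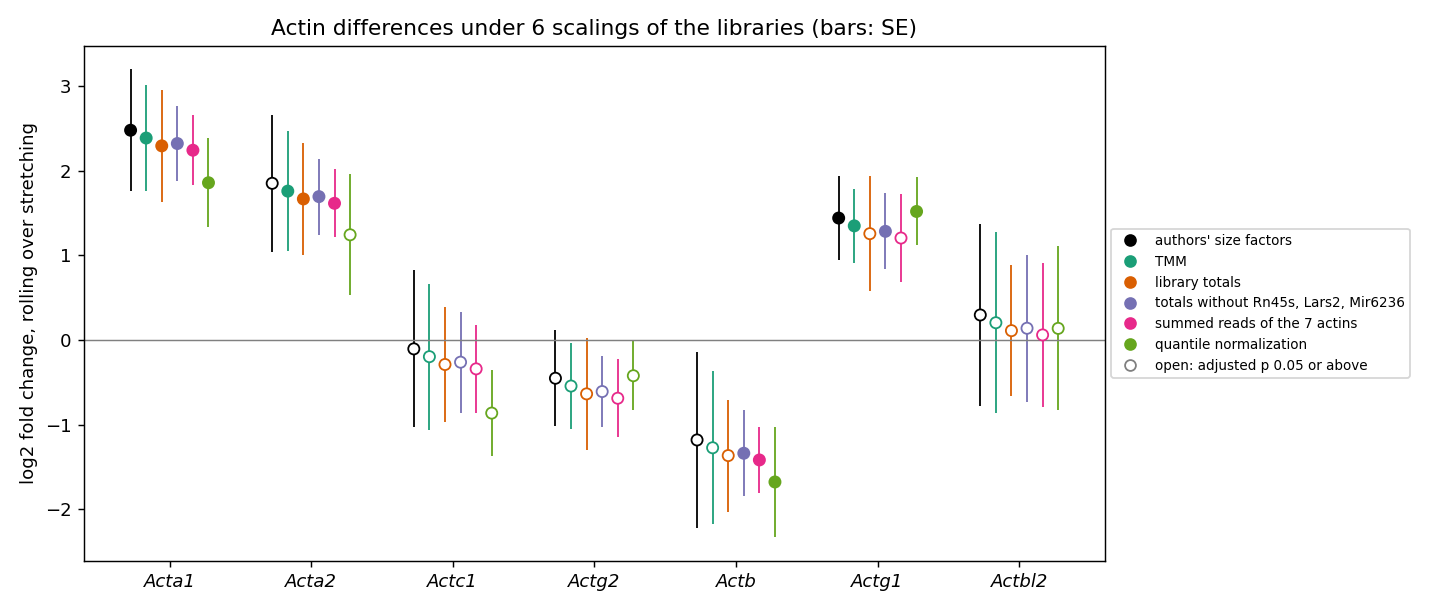
Log2 fold change of rolling over stretching (vertical axis, bars are SE) for each actin under 6 scalings of the libraries, filled where the limma adjusted p is under 0.05. Acta1 lies between 1.86 and 2.48 and is filled throughout, whereas Actb lies between -1.18 and -1.68 and is filled under 3 of the 6.

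Profiles over the 6 libraries were compared as the root mean square difference of log2(value + 1) centred on each symbol's mean. The comparison took in 298 other named features with a mean of at least 100. Functions given for these features are those of the mammalian genes, and which woodlouse genes supplied the reads is not given. Within the family, Acta1 and Acta2 were closest, at 0.33, followed by Acta2 and Actg1 at 0.41 and Actb and Actg2 at 0.43, and Acta1 and Actb were farthest apart, at 1.84. Acta2 was closest to Magoh, a component of the exon junction complex, at 0.22, then to Sec61a2, a subunit of the protein channel of the endoplasmic reticulum, at 0.25, and Zc3h18 at 0.29. Magoh stood at 182, 425 and 447 normalised reads in rolling and 72.8, 123 and 76.4 in stretching. The features nearest to Acta1 were Sema3d, a secreted semaphorin, at 0.33, Egflam, a matrix protein of the synapse, at 0.34, and Ankrd12 at 0.35.

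Actb was closest to Tubal3, an alpha-tubulin, at 0.21, with 101, 158 and 373 normalised reads in rolling and 386, 464 and 359 in stretching. Il12b, a cytokine subunit, and Rreb1, a zinc finger transcription factor, followed at 0.44 and 0.46. Actg1 was closest to another alpha-tubulin, Tuba4a, at 0.29, then to Sec61a2 and Zc3h18, both at 0.32. Actc1 was nearest to Lrrc58, a leucine-rich repeat protein, at 0.39, to the dynein light chain Dynll2 at 0.40 and to the alpha-tubulin Tuba1a at 0.56. Actg2 was nearest to Il12b at 0.15, Shank1, a scaffold of synapses, at 0.34, and Dynll2 at 0.38. The profile of Actbl2 had no close match, the nearest being Pabpc1, a poly(A)-binding protein, at 0.56, and Baz2a and Dynll2 at 0.81 and 1.04. These distances are descriptions of 6 libraries that share their depth and scaling. With scaling to library totals, 19 of the 21 neighbours were found again. That count tests little, because rescaling a library shifts every profile by nearly the same amount, which cancels in the difference.

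Genes that work with actin were looked up in 7 lists by mouse symbol. The table held 202 of their 209 symbols, 175 of these with reads, and 36 had a mean high enough to be tested. Of these 36 genes, 14 rose, 9 fell and 13 did not pass, so that 23 were called. The background over all tested features was 75.2%, with 37.8% higher and 37.4% lower. The same background holds for the counts of each list below, and no list was tested as a set. The median log2 fold change of the 36 genes was 0.70, beside 0.10 for all tested features. All listed genes together held 0.436% to 2.91% of a library's reads. Functions given for listed genes are those of the mammalian genes, and which woodlouse genes supplied the reads is not given. The listed symbol with the most reads in rolling was Actrt2, an actin-related protein of the sperm head in mammals, with 40056 reads over the 3 rolling libraries and 1712 over the 3 stretching libraries. In stretching it was Anln, with 23 reads over the rolling libraries and 2880 over the stretching libraries.

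Among 3 tested actin-related proteins, 2 rose and 1 did not pass. Actrt2 had 5731, 12922 and 20245 normalised reads in rolling, against 599, 342 and 870 in stretching, without overlap. The log2 fold change was 4.34 (SE 0.64), with a limma adjusted p of 0.00022. Its share of counted reads was 2.02%, 2.53% and 1.66% in rolling and 0.137%, 0.0748% and 0.144% in stretching. Reads of Actrt2 are not part of the actin sum, and whether any of them came from woodlouse actin genes was not tested. Acta2 reads per Actrt2 read were 3.65, 2.82 and 2.90 in rolling, against 15.9, 35.0 and 9.66 in stretching, so Actrt2 and Acta2 did not keep a constant ratio. Actr6, a subunit of a chromatin remodeller, rested on 92 reads over the rolling libraries and 2 over the stretching libraries, which is 35.8 times as many after scaling (95% counting interval 9.64 to 300.2). Actr2, a subunit of the Arp2/3 complex that starts branched filaments, averaged 21.9 ± 17.0 normalised reads in rolling and 7.04 ± 0.551 normalised reads in stretching (SD, n = 3 each) and did not pass (limma adjusted p 0.091, and 0.012 without rolling 1).

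Of 9 tested genes of filament nucleation, 4 rose and 5 did not pass. Wasf2, which activates the Arp2/3 complex, had 150 reads in rolling and none in stretching, which makes it at least 38.9-fold higher when 3 reads in the whole stretching group are taken as the limit. Nckap1, a partner of Wasf2 in the same regulatory complex, had 106 reads over the rolling libraries and 3 over the stretching libraries, 27.5 times as many after scaling (95% counting interval 9.16 to 135.5). Cobl, a nucleator of unbranched filaments, averaged 76.3 ± 35.7 normalised reads in rolling and 2.25 ± 2.26 normalised reads in stretching (SD, n = 3 each), a log2 fold change of 4.80 (SE 0.65) that was 4.10 without stretching 1. The formin Fhod1 stood at 15.3 ± 7.94 in rolling and 29.3 ± 6.07 in stretching and did not pass (limma adjusted p 0.074, and 0.027 without rolling 2).

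Turnover and capping had 7 tested genes, of which 2 rose and 1 fell. Cap1, which recycles actin monomers, had 74.8, 50.2 and 73.9 normalised reads in rolling, against 4.79, 6.79 and 5.54 in stretching, a log2 fold change of 3.32 (SE 0.37). Coro1c, a coronin that binds filaments, fell by 3.42 on the log2 scale (SE 0.51), with 3.81 ± 2.54 normalised reads in rolling and 44.9 ± 7.37 in stretching (SD, n = 3 each). The adducin Add2 and the membrane-linked supervillin, Svil, had log2 fold changes of -0.40 (SE 0.37) and -0.10 (SE 0.33) and did not pass.

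Of 12 tested genes of crosslinking and anchoring, 4 rose, 6 fell and 2 did not pass. Actn4, an alpha-actinin that bundles filaments, averaged 315 ± 32.6 normalised reads in rolling and 3.44 ± 3.01 normalised reads in stretching (SD, n = 3 each), a log2 fold change of 6.55 (SE 0.67) that was 5.68 without stretching 2. The spectrin Sptan1 rose by 4.80 (SE 0.40) and the crosslinker Dst by 1.95 (SE 0.35). Anln, the actin-binding anillin of the dividing cell, had 7.38, 4.90 and 5.43 normalised reads in rolling, against 908, 1501 and 671 in stretching, a log2 fold change of -7.15 (SE 0.39) at a limma adjusted p of 9.8e-07.

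Partners of the sarcomere thin filament had few reads beside the actins. The list of 24 genes held 0.00847% to 0.0395% of a library's reads, and 2 of its genes were tested. Neither passed by limma, and neither was called by DESeq2 or edgeR, while 1 of the 2, Neb, had an unadjusted limma p of 0.048. Neb passed in a single alternative, limma with a pseudocount of 8 (adjusted p 0.045). Neb, the giant protein nebulin that lies along the thin filament, averaged 74.6 ± 9.77 normalised reads in rolling and 42.8 ± 12.1 normalised reads in stretching (SD, n = 3 each; limma adjusted p 0.062), and Lmod3, which nucleates muscle filaments, at 14.2 ± 6.67 in rolling and 14.1 ± 2.96 in stretching. The 4 tropomyosins in the table had 28 reads in rolling and 50 in stretching over the 3 libraries of each group. Of the 8 troponins, 6 had no read in any library, and the other two had 5 reads in rolling and 3 in stretching. How reads were counted under mouse symbols is not given, so few reads under a symbol need not mean little woodlouse RNA. In bulk samples, fewer cells of a type and less RNA per cell cannot be told apart either.

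Actin folding and modification had a single tested gene, Pdcl3, a cofactor of the chaperonin that folds actin and tubulin. It had no read in rolling and 128 in stretching, and was at least 54.8-fold lower in rolling. In the list of SRF coactivation, the regulatory system of many muscle and cytoskeletal genes in mammals, 2 of 4 tested genes rose and 1 fell. Fhl2, a coregulator with LIM domains, had 365 reads in rolling and none in stretching, at least 94.7-fold higher. Mef2c, a muscle transcription factor, rose by 1.58 (SE 0.43; limma adjusted p 0.0083), and missed the threshold when libraries were scaled to their totals (limma adjusted p 0.099). Mef2d fell, with a log2 fold change of -1.17 (SE 0.43) at a limma adjusted p of 0.033, and missed the threshold in 12 of 19 alternatives.

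**Figure D5:**
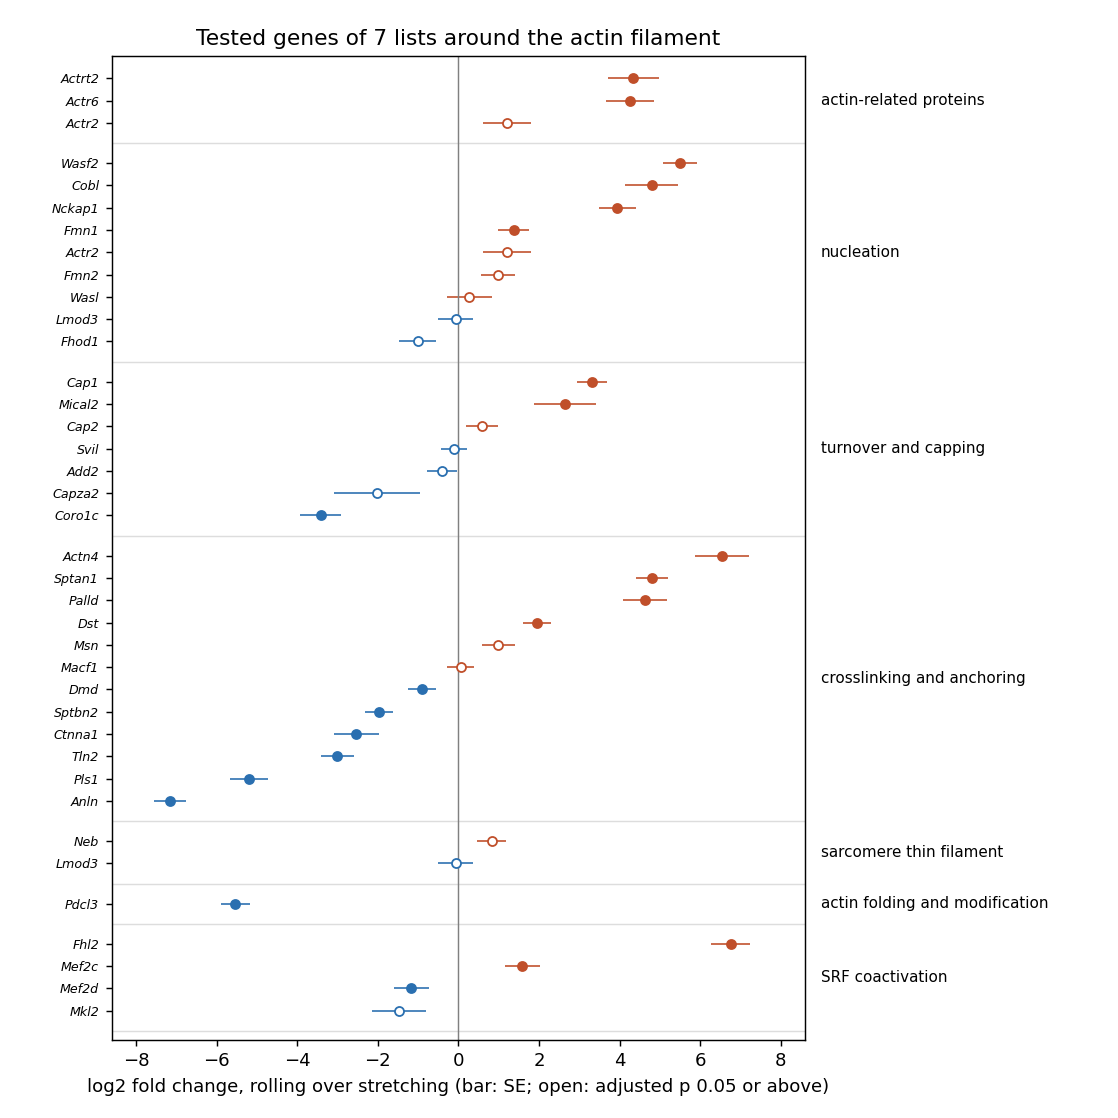
Log2 fold change of rolling over stretching (horizontal axis, bars are SE) for the tested genes of 7 lists, grouped by list, with filled points for a limma adjusted p under 0.05. Values range from -7.15 for Anln to 6.76 for Fhl2, and the 2 thin filament genes are open.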

How the data were processed

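Poly(A) RNA libraries of 3 rolling and 3 stretching samples were compared. Values are a deposited signal, reads per feature divided by a size factor per sample by the authors. The authors' deposited table also holds, per the file headers, log2 fold changes, their standard errors and Wald statistics (scores), and p-values. The submitters' processing notes name BWA, DESeq2 and mm10 without saying what each was used for, and how reads were counted under mouse symbols is not given in the sources. No label maps the column heads curl and strait, which were read as rolling and stretching from what the words mean. The smallest value above 0 of a column was taken as 1 read, and 100.0% of values were then whole reads (largest deviation 1.0e-09).

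Groups were compared with limma 3.58.1 (R 4.3.3), two-sided, with its trend option, on log2(value + 1) of 2948 features with a mean of at least 10. P-values were adjusted by Benjamini-Hochberg over these features and called under 0.05. This scale understates changes of low features. Family shares were compared by exact two-sided permutation over libraries (scipy 1.17.1). DESeq2 1.42.0 and edgeR 4.0.16 on the recovered reads were alternatives, and DESeq2 called the same 3951 features as the authors' deposited table. The fit was run on simulated data in which only a small part of the features changed, unlike here, so that check does not bear on these calls. Actins and lists were chosen with earlier results of these data known. Genes named from the lists are the 3 tested with the highest mean and the 2 called with the smallest adjusted p of each, and 3 nearest profiles were taken per actin. The alternatives for 1 ratio of actins are not reported here. Counted reads per library ranged from 403971 to 1122154. At this depth 3 reads equal 1.58 to 3.67 normalised reads.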

Additional observations from a re-analysis of the deposited data

How the results depend on the processing

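Of the 7 actins, 2 were called in the main test, and 0 to 3 with single libraries left out: 0 without stretching 1 or stretching 3, 1 without rolling 2 or stretching 2, and 3 without rolling 1. The count was 1 without a filter, 1 with the replicate block, 4 with scaling to totals without Rn45s, Lars2 and Mir6236, and 0 without rolling 3 and stretching 3. Replicate numbers gave no sign of pairing the libraries. Deviations of same-numbered samples correlated at 0.021, -0.0066 and 0.0087 across features, beside -0.034 to 0.024 for other numbers. That check cannot exclude a pairing, because counting noise of low features could hide it. With the block, Acta1 had a limma adjusted p of 0.033 and Actg1 missed the threshold at 0.05005. Called genes of the 7 lists numbered 23 of 36 tested, 55 of 175 without a filter and 3 of 3 with a minimum mean of 100. The share over all features at that minimum mean is not given here, so nothing is read from the last count. DESeq2 called 35 of the 202 listed symbols in its input, a count that takes in symbols without an adjusted p. On that same base it called 3951 of all 24421 features. The share over all tested features was 75.2% in the main test and 31.6% without a filter. By DESeq2 it was 37.2% of the 10612 features with an adjusted p, a narrower base than that of the 202 symbols. With single libraries left out, the called genes of the lists numbered 21 to 23.

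Values near 0 changed sign, and the ranges here leave out single libraries. The log2 fold change ranged from -1.13 to 1.46 for Actbl2, from -1.14 to 0.58 for Actc1, from -0.92 to 0.022 for Actg2 and from -0.40 to 0.21 for Lmod3. Actc1 was also at 0.24 without rolling 2, 0.035 without stretching 2, 0.68 by DESeq2 and 0.45 by edgeR, and Lmod3 at 0.066 without stretching 2 and 0.036 by DESeq2. The log2 difference of the actin sum, 0.24, ranged from -0.26 to 0.73. Actins' share of reads differed by 0.171 percentage points, with a range of -2.46 to 2.29 and -0.706 without rolling 2. The share of the actin sum ranged from -0.0583 to 0.538 points for Actbl2 and from -4.29 to 1.32 for Actc1, which was at 0.749 without rolling 1. Log2 ratios ranged from -0.036 to 1.22 for Actbl2/Actc1, -2.54 to 0.33 for Actbl2/Actg1 and -0.22 to 1.93 for Actbl2/Actg2. Without rolling 3 and stretching 3 together, the log2 fold change was -1.31 for Actbl2 and 0.058 for Lmod3, the log2 difference of the actin sum was -0.36, its share of reads differed by -1.69 points and the family share of Actbl2 by -0.0761 points. The cause was not tested. The family shares of Acta1, Acta2, Actb, Actg1 and Actg2 kept their direction under each of the 8 alternatives run on them. That outcome was fixed in advance. These shares did not overlap between the groups, and the alternatives only left libraries out or added the replicate block. Shares per coding length were planned and not run, since no lengths were used here.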
